A study of Mus musculus with 10 samples.

Results

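Early transitional mutant cells were taken here as RFP+ cells, collected 4 days after induction, that carried at least 1 UMI (a sequenced mRNA molecule) of at least 3 of the 6 genes Hmga2, Itga2, Cldn4, Krt19, Sprr1a and Aldh1a3. Cells entered this count when they had at least 1000 detected genes, no more than 50000 UMIs, no more than 15% mitochondrial UMIs and no UMI of the leukocyte gene Ptprc. The cells were thus chosen by measured values, the UMIs of these 6 genes. The rule found 423 cells among 5380 eligible cells of both 4 days RFP libraries, out of 30599 eligible cells in the series. Replicate 1 held 36 of them and replicate 2 held 387. They were compared with cells of the same library in which none of the 6 genes had a UMI, 2553 in replicate 1 and 720 in replicate 2. The remaining 1212 and 472 cells, with 1 or 2 of the genes, lay between these classes.

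The study followed alveolar type 2 (AT2) cells of the mouse lung after some of them had been turned into mutant cells. Sftpc-CreERT2 restricts recombination to cells that use the Sftpc promoter when tamoxifen is given, so labelled cells descend from AT2 cells and other cells of origin are not covered. In Sftpc-CreERT2;Red2Kras mice, RFP marks the mutant cells and YFP marks wildtype neighbours, and each colour has 2 libraries from 4 days and 2 from 2 weeks. Sftpc-CreERT2;R26R-Confetti mice carry no mutant allele and gave 1 RFP and 1 YFP library, whose labels give no time point and which the study's methods place at 2 weeks. All mice received tamoxifen in 3 doses of 0.2 mg per g body weight at 8 weeks of age, both sexes were used, and each library pooled at least 2 lungs, from which live EpCAM+ cells of 1 colour were sorted. The labels do not say that replicate libraries came from separately processed mice, so the p-values below measure the spread between libraries.

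AT2 cells make and secrete surfactant, and they act as stem cells of the alveolus. After injury some of them pass through a transient state, rich in keratins and stress genes, on the way to the flat alveolar type 1 (AT1) cells through which gas is exchanged. Growth factor receptors such as the EGF receptor signal through the kinases MEK and ERK, whose targets include genes that limit the signal again. The 6 genes of the rule stand for different sides of that state. Hmga2 encodes a chromatin protein of embryonic tissues, Itga2 the alpha 2 chain of a collagen-binding integrin, Cldn4 a claudin of tight junctions, Krt19 a keratin of simple epithelia, Sprr1a a small proline-rich protein of the cornified envelope, and Aldh1a3 an enzyme that makes retinoic acid.

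Across the 10 libraries, 42012 barcodes were deposited and the total per library ranged from 10742481 to 79927159 UMIs. Both 4 days RFP libraries held a few Ptprc+ cells (37 and 157), which were left out of both classes and served for comparison. These cells hold immune RNA of their own, as given below, so they are not a pure measure of background. Any pair of libraries that included a 4 days RFP library shared between 1 and 13 cell barcodes, at most 0.294%, and no barcode was a transitional cell in both. A doublet score set to mark 0.8% per 1000 cells marked 1 of 36 (2.78%) and 9 of 387 (2.33%) transitional cells, against 69 of 2553 (2.70%) and 5 of 720 (0.694%) cells with none of the genes. The mice differed in sex between the libraries, since eligible cells whose sex could be read from Xist and Y-linked genes were 82.3% female in replicate 1 and 0.383% female in replicate 2.

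The share of transitional cells was far higher in replicate 2 than in replicate 1 at 4 days. It was 0.947% in replicate 1 (exact 95% interval 0.664 to 1.31) and 24.5% in replicate 2 (22.4 to 26.7), so that the mutant libraries of this time point did not resemble each other in this measure. In YFP+ neighbours of the same time point it was 0.164% (3 of 1826 cells) and 0.301% (9 of 2989 cells). The Confetti libraries held 1 such cell among 3914 and 2 among 4121. At 2 weeks the mutant libraries reached 26.0% and 32.5% and the YFP+ libraries 0.557% and 2.11%. With all UMIs counted, replicate 2 at 4 days therefore lay close to the mutant libraries of 2 weeks. Replicate 1 lay below the higher of the YFP+ libraries of 2 weeks. Groups of 2 libraries cannot give an exact permutation p below 0.333, and no test of the shares was made. Intervals cover counting error only.

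**Figure D1:**
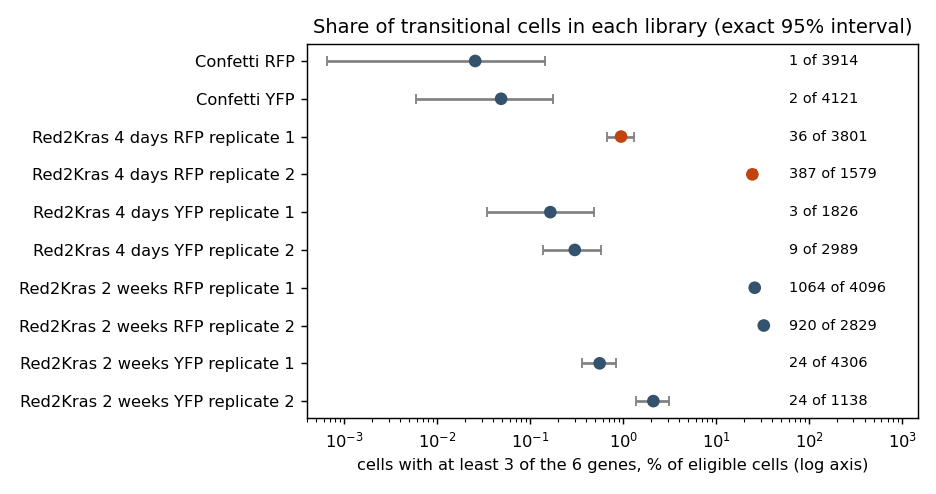
Share of eligible cells with at least 3 of the 6 genes in each of the 10 libraries (log axis, % of eligible cells), with exact 95% intervals and the cell numbers at the right. The 4 days RFP libraries, in orange, stand at 0.947% and 24.5%.

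Depth differed between the classes, and sex differed between the libraries. Transitional cells had a median of 9898.5 UMIs in replicate 1 and 6104 in replicate 2, against 4479 and 4797.5 in cells with none of the genes. Thinned to 2000 UMIs per cell, 13 of 3796 cells (0.342%) and 239 of 1577 (15.2%) still met the rule. The mutant libraries of 2 weeks then had 11.5% and 14.1%, both below replicate 2 of 4 days. Among cells of replicate 1 with a readable sex, 15 of 2355 female cells (0.637%) and 15 of 507 male cells (2.96%) were transitional, while in replicate 2 they were 156 of 520 male cells (30%). Male cells thus also differed between the replicates, by a smaller factor than the whole libraries. The part of mouse, sex and library in the shares cannot be told apart.

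The transitional cells combined the rule genes in different ways in the 2 libraries. Replicate 1 held 12 combinations, the most common being Cldn4, Krt19 and Sprr1a (9 cells) and Itga2, Cldn4 and Krt19 (9 cells). Replicate 2 held 37 combinations, led by all genes except Sprr1a (64 cells), by Hmga2, Itga2, Cldn4 and Krt19 (46 cells) and by all 6 genes (30 cells). Exactly 3 genes were seen in 21 of 36 cells and 146 of 387 cells. All 6 were seen in 1 cell of replicate 1.

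Levels of the rule genes are a description, since they chose the cells. Summed over transitional cells and given as CPM (counts per 1e+06 UMIs, mitochondrial genes left out), Sprr1a stood at 975 in replicate 1 and 1418 in replicate 2, Krt19 at 932 and 631, Cldn4 at 403 and 561, Itga2 at 188 and 480, Hmga2 at 140 and 438, and Aldh1a3 at 56.4 and 342. All but Krt19 were higher in replicate 2. A UMI of Cldn4 was found in 100% and 86.3% of the cells, of Krt19 in 94.4% and 82.4%, of Itga2 in 72.2% and 80.9%, of Hmga2 in 30.6% and 71.1%, of Sprr1a in 47.2% and 35.7%, and of Aldh1a3 in 22.2% and 47.0%. Sprr1a was thus abundant in a minority of the cells, and the 10% of cells with the most Sprr1a carried 60.9% and 80.9% of its UMIs. In Ptprc+ cells of replicate 1 and 2, at median depths of 3984 and 5025 UMIs, Cldn4 had a UMI in 8.11% and 2.55%, Hmga2 in 2.70% and 1.27%, and Itga2 in 2.70% and 1.27%. Krt19 had one in 48.6% and 21.0% of the Ptprc+ cells. A single Krt19 UMI, above all in replicate 1, thus set transitional cells apart from Ptprc+ cells less sharply than the other genes did.

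In the GENCODE M21 annotation of GRCm38, the rule genes lie apart. Hmga2 is at chr10:120361275-120476469, Itga2 at chr13:114833081-114932100, Cldn4 at chr5:134945119-134946934, Krt19 at chr11:100140810-100148665, Sprr1a at chr3:92483952-92485895 and Aldh1a3 at chr7:66390890-66427517, all on the minus strand. Phgdh, which the label counts among the markers but the rule does not use, is at chr3:98313170-98339990 on the minus strand.

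Upstream sequence is shown for 2 rule genes and for 2 genes of the ERK and amino acid stress lists described below, because they hold the letters to which AP-1 and ATF4-type factors are known to bind. The 250 bases before the start were taken from RefSeq (GRCm38.p6), and 4 of the 6 rule genes had an entry there, Hmga2, Itga2, Cldn4 and Sprr1a. Capitals mark TGACTCA or its reverse complement TGAGTCA (AP-1) in the first 3 sequences and TGATGCAA or its reverse complement TTGCATCA (ATF4-type) in the last. Each sequence runs 5′ to 3′ on the strand of its gene, and the places are chr5:134946935-134947184 (minus), chr3:92485882-92486131 (minus), chr6:135362681-135362930 (plus, the first of 2 entries of Emp1) and chr3:50443614-50443863 (minus).
Cldn4: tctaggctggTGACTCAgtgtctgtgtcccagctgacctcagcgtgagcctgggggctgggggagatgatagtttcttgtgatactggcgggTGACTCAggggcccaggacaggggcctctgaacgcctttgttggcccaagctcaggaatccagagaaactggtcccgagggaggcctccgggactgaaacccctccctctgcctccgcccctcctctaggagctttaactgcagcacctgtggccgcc
Sprr1a: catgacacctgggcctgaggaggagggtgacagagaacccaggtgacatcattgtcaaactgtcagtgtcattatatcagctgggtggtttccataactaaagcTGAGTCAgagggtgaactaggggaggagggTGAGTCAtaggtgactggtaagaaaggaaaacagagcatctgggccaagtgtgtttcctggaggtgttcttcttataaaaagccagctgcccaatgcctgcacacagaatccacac
Emp1: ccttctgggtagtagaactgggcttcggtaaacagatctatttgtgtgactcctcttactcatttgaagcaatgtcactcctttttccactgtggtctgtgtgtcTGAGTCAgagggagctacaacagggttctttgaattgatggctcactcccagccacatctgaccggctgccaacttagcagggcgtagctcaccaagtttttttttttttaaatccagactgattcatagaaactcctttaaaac
Slc7a11: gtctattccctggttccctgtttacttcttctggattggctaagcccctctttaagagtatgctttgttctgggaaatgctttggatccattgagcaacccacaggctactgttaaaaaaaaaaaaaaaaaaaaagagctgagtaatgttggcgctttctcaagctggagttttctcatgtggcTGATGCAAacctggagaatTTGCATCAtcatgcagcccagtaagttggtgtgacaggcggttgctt

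Cldn4 held the AP-1 letters 240 and 158 bases before its start, Sprr1a 146 and 116 bases before, and Emp1 145 bases before. Hmga2 and Itga2 had no match in this window. Of the genes tested that had an entry, 410 of 9792 (4.19%) held these letters on either strand (1395 of 27025, or 5.16%, over all genes), against 64 of 890 (7.19%) of the genes higher in transitional cells and 54 of 1347 (4.01%) of those lower. ATF4-type letters were present in 0.674% of the genes tested (0.918% of all genes), 1.01% of those higher and 1.56% of those lower. Slc7a11 held them at 2 places, the first 66 bases before its start. These matches describe sequence and are not binding sites.

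In the comparison of classes, 12621 genes were tested with a quasi-likelihood F test (edgeR) on UMIs summed per library and class, with the library as a block. In transitional cells 1163 genes were higher and 1726 lower at an adjusted p under 0.05, which is 22.9% of the genes tested (9.21% higher, 13.7% lower), and the median log2 fold change over all of them was -0.13. The rule genes took part in the scaling and received no p. Every gene was measured in the cells that the rule genes had chosen, so the shares of called genes in the lists below are to be read against 9.21% and 13.7%. Replicate 1 contributed only 36 transitional cells. Without replicate 2 the test called 1319 genes, and without replicate 1 it called 4750. In these fits and in every p below that leaves out a 4 days library, 1 library is left at that time point, and it is assumed to vary like the 2 weeks libraries, from which the spread comes.

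Phgdh is not used by the rule, although the label names it as a marker of these cells from earlier results of the same data, so its level is no independent check. This enzyme, which opens the serine synthesis pathway, stood at 118 and 544 CPM in transitional cells and at 10.8 and 9.72 CPM in cells with none of the genes. The classes did not overlap, and the transitional cells of replicate 2 held the higher level. The log2 fold change was 4.40 ± 0.52 (SE, adjusted p = 0.000671), or 21.1-fold. A UMI of Phgdh was found in 15 of 36 and 277 of 387 transitional cells, and in 18.9% and 17.8% of Ptprc+ cells. Without replicate 2 its log2 fold change was 3.21 (adjusted p = 0.000329).

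AT2 identity was reduced across nearly the whole list of its genes. Of 23 genes tested, 22 were lower and none higher, with a median log2 fold change of -3.18. Sftpc, the gene of surfactant protein C, fell from 143811 and 101826 CPM to 32918 and 2308 CPM (log2 fold change -4.04 ± 0.78 SE, adjusted p = 0.00582). The lysozyme gene Lyz1 fell from 3817 and 1110 CPM to 207 and 9.73 CPM. Abca3, which carries lipid into lamellar bodies, stood at 86.0 and 42.3 CPM against 481 and 377 CPM, and Cebpa, a transcription factor of mature AT2 cells, at 67.2 and 24.7 against 218 and 161 CPM. In all of these the transitional cells of replicate 2 were the lowest of the 4 sums. Ctsh, a protease that processes surfactant protein, was the member that did not pass, with 1306 and 305 CPM against 1276 and 711 CPM (adjusted p = 0.119).

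Single cells differed in how much Sftpc they held. More than 10000 Sftpc CPM were found in 16 of 36 transitional cells of replicate 1 (44.4%) and in 22 of 387 of replicate 2 (5.68%), against 97.8% and 83.9% of cells with none of the genes. The median over all transitional cells was 1697 CPM in replicate 1 and 0 in replicate 2, and the Ptprc+ cells of these libraries had medians of 1044 and 0 CPM. Levels fell into a high and a low group, with 0 and 5 transitional cells in the histogram bin that ends at 10000 CPM. With 3 rule genes 13 of 21 and 16 of 146 transitional cells had high Sftpc, and with 4 genes 2 of 7 and 4 of 112. With 5 genes 1 of 7 and 2 of 99 had it, and with all 6 genes 0 of 1 and 0 of 30.

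**Figure D2:**
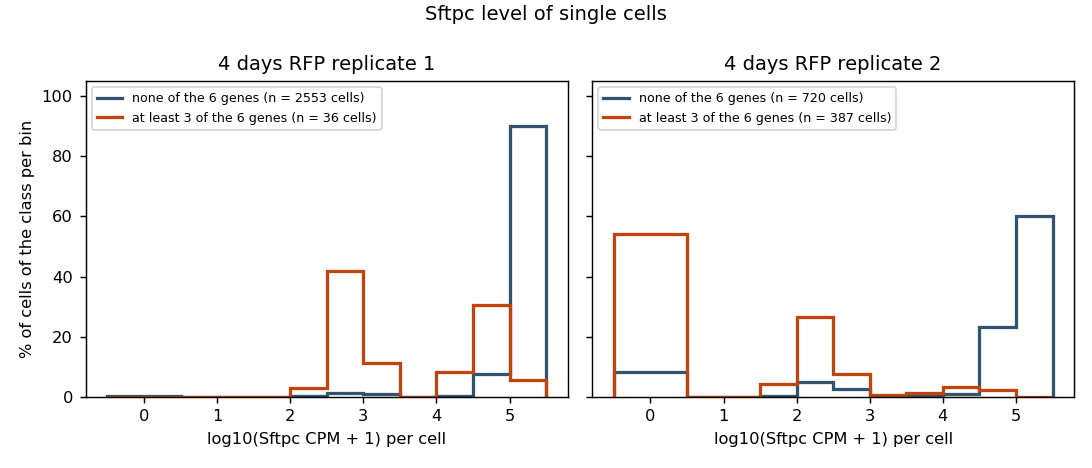
Sftpc level of single cells as log10(CPM + 1), as the % of cells per bin in each class, for both 4 days RFP libraries. The first bin holds cells without an Sftpc UMI, and transitional cells form a low and a high group, with 16 of 36 and 22 of 387 cells above 10000 CPM.

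Transitional cells with high Sftpc differed from the others in genes outside the rule. The surfactant-body gene Lamp3 stood at 758 and 536 CPM in the Sftpc-high cells against 15 and 14.8 CPM in the others, and the acute phase gene Lcn2 at 1394 and 3056 against 9.97 and 22.4 CPM. Keratin Krt8 was at 1160 and 1135 CPM in the Sftpc-high cells and 2029 and 1340 CPM in the others. S100a6, a calcium-binding protein, was at 7353 and 10548 CPM against 25135 and 24758 CPM, and Phgdh at 23.3 and 198 against 199 and 568 CPM. Krt8 and S100a6 were thus present in both kinds of transitional cell, with S100a6 lower in the Sftpc-high kind. Lamp3 and Lcn2 were far higher in the Sftpc-high kind in both libraries. Sftpc-high cells were also deeper, with medians of 11791.5 and 7589.5 UMIs against 9331.5 and 5925. The part of depth in these differences was not tested. These cells were split by a measured level, so no test was made.

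Across the number of rule genes detected, counted over all UMIs, summed levels changed by steps. These sums mix cells of the high and the low Sftpc group, so they do not show a graded level of single cells. In replicate 2, cells with 0 to 6 rule genes had 101826, 79385, 19536, 5422, 1020, 1063 and 64 Sftpc CPM, while S100a6 went from 448 through 1171, 7961, 17400, 24414 and 27285 to 31723 CPM. In replicate 1 Sftpc went from 143811 with none of the genes to 48325 with 3, and S100a6 from 116 to 12052 CPM. Levels at a step depended on depth. Thinned to 2000 UMIs, replicate 2 cells with 2 genes had 4058 Sftpc and 17696 S100a6 CPM. Thinned replicate 1 cells with 3 genes had 23434 and 20275 CPM. Cells with 2 rule genes, just outside the rule, had 33.4 and 169 Phgdh CPM, and cells with 3 genes, just inside it, had 73.9 and 343 CPM. After thinning, cells with 2 rule genes had 27.7 and 393 Phgdh CPM. Krt8 stood at 960 and 788 CPM just outside and at 1203 and 1078 CPM just inside.

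**Figure D3:**
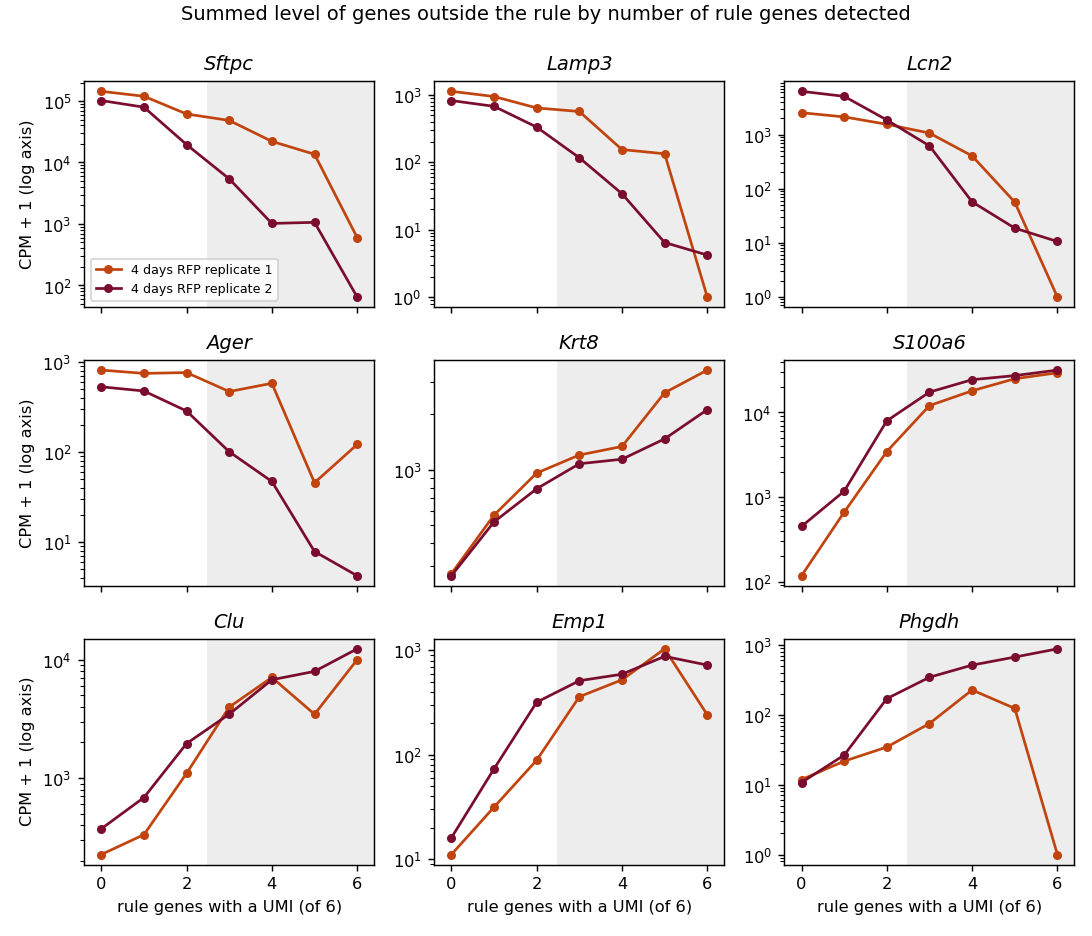
Summed level (CPM + 1, log axis) of 9 genes outside the rule in cells with 0 to 6 rule genes, 1 line per 4 days RFP library, with the transitional cells on grey. In replicate 2 Sftpc runs from 101826 to 64 CPM and S100a6 from 448 to 31723 CPM, and the last point of replicate 1 is 1 cell.

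Acute phase and primed AT2 genes, which mark inflamed AT2 cells, were lower as well. Of 13 tested, 10 were lower and none higher (median log2 fold change -2.62). Lrg1, a secreted acute phase glycoprotein, fell from 563 and 1964 CPM to 51.1 and 47.5 CPM (log2 fold change -4.81 ± 0.49 SE, adjusted p = 0.000361). Lcn2, which binds bacterial siderophores, fell from 2535 and 6302 CPM to 648 and 217 CPM. Orm1 had 0 and 0.374 CPM in transitional cells against 3.49 and 34.5 CPM. Ifitm3, an interferon-induced membrane protein, did not pass, with 159 and 93.2 against 113 and 315 CPM.

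AT1 genes did not move as a group. Of 18 tested, 4 were higher (Krt7, Cav1, Gprc5a and Lmo7) and 3 lower (Clic3, Timp3 and Ager), with a median log2 fold change of 0.09. Krt7, a keratin of AT1 cells and of the transient state, rose from 74.4 and 81.4 CPM to 1553 and 1645 CPM (log2 fold change 4.12 ± 0.30 SE, adjusted p = 8.89e-05). Ager, a receptor used as an AT1 marker, fell from 815 and 530 CPM to 384 and 47.1 CPM. Cldn18, the main claudin of the alveolus, stood at 680 and 323 against 507 and 299 CPM and did not pass. Thinned to 2000 UMIs per cell, the list had 5 genes higher and 5 lower and its median was -1.35. Without replicate 2, Cav1 did not pass (adjusted p = 0.079).

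Genes of the transient progenitor state formed the most uniform list in the other direction. Of 23 tested, 21 were higher and none lower (median log2 fold change 2.44). S100a6 rose from 116 and 448 CPM to 16940 and 23845 CPM (log2 fold change 6.22 ± 0.54 SE, with an adjusted p of 0.000174). Clu, a secreted chaperone, rose from 226 and 373 CPM to 4686 and 6697 CPM, and Ndrg1, a stress-induced gene, from 2.66 and 7.50 CPM to 96.7 and 463 CPM. Krt8 rose from 272 and 264 CPM to 1628 and 1327 CPM. For each of these genes both transitional sums lay well above both other sums. Nupr1, a stress-induced chromatin protein, stood at 1739 and 1959 CPM against 1268 and 1003 CPM and did not pass (adjusted p = 0.249). The list overlaps with the rule in purpose, although no rule gene received a test.

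Within the transitional class, S100a6, Krt8 and Areg were detected in most cells. S100a6 had a UMI in 35 of 36 and 387 of 387 cells, Krt8 in 36 of 36 and 352 of 387, and the EGF-family ligand Areg in 34 of 36 and 358 of 387. Clu was more variable, with a UMI in 31 of 36 and 268 of 387 cells, a median of 2718 and 1208 CPM and a highest cell of 23197 and 67920 CPM. In Ptprc+ cells of the same libraries (median of 3984 and 5025 UMIs) these shares were 64.9% and 64.3% for S100a6, 18.9% and 7.01% for Krt8, 13.5% and 4.46% for Areg and 13.5% and 10.8% for Clu. Ptprc+ cells carried S100a6 at 2361 and 2085 CPM in sum, and Clu at 136 and 69.9 CPM.

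Among keratins, 4 of 8 tested were higher and none lower (median log2 fold change 2.33), namely Krt7, Krt8, Krt18 and Krt80. Krt7, Krt8 and Krt18 are also in the transient progenitor list, so these counts are not separate results. Krt18, the partner of Krt8 in filaments, rose from 411 and 305 CPM to 2854 and 1797 CPM (log2 fold change 2.44 ± 0.32 SE, adjusted p = 0.00101). Krt80 rose from 3.41 and 1.67 CPM to 8.06 and 21.3 CPM and did not pass when replicate 2 was left out (adjusted p = 0.589). Krt23 stood at 142 and 102 against 76.3 and 80.0 CPM (adjusted p = 0.329).

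Integrins and matrix genes were higher for 16 of 23 tested and lower for Col4a2 (median log2 fold change 2.20). Itgb4, the integrin chain that anchors cells to laminin through hemidesmosomes, had 2 UMIs over all cells with none of the genes and 24.2 and 61.4 CPM in transitional cells. The urokinase gene Plau rose from 0.415 and 1.11 CPM to 29.6 and 53.5 CPM, and its receptor Plaur from 4.07 and 36.1 CPM to 433 and 485 CPM. Itga6, the partner of Itgb4, rose from 20.3 and 48.9 CPM to 94.1 and 380 CPM (log2 fold change 2.39 ± 0.28 SE, adjusted p = 0.000675). Itgb1, the common beta chain and partner of Itga2, stood at 363 and 320 CPM against 233 and 160 CPM and did not pass (adjusted p = 0.12). Spp1, the secreted glycoprotein osteopontin, rose from 5.90 and 48.6 CPM to 145 and 599 CPM, but it had a UMI in only 5 of 36 and 76 of 387 transitional cells and did not pass without replicate 2 (adjusted p = 0.0671). Spp1 stood at 95.7 and 360 CPM in Ptprc+ cells, with a UMI in 16.2% and 43.9% of them. The share of transitional cells with an Spp1 UMI was not above these shares. Ptprc+ cells hold RNA of their own, so the part of background in this Spp1 was not tested.

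Ligands of the EGF receptor family were higher, and none of the receptors tested passed. Of 9 genes tested, 6 were higher and none lower (median log2 fold change 2.13), and these were the ligand genes Ereg, Areg, Hbegf, Btc, Tgfa and Epgn. Ereg rose from 3.07 and 1.39 CPM to 153 and 151 CPM (log2 fold change 5.77 ± 0.35 SE, adjusted p = 5.68e-05). Areg rose from 126 and 94.7 CPM to 2354 and 1408 CPM and Hbegf from 48.7 and 42.5 CPM to 234 and 236 CPM. For the receptors, Erbb3 stood at 29.6 and 29.9 CPM in transitional cells against 35.3 and 26.9 CPM (adjusted p = 0.557), and Egfr at 2.69 and 7.48 against 3.57 and 0.833 CPM, from 1 and 20 against 43 and 3 UMIs (adjusted p = 0.221, and 0.0359 without replicate 1). Tgfa and Epgn did not pass without replicate 2 (adjusted p = 0.419 and 0.0906).

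Targets and feedback genes of ERK were split. Of 21 tested, 12 were higher and 2 lower (median log2 fold change 0.94). Emp1, a membrane protein, rose from 10.1 and 15 CPM to 556 and 659 CPM (log2 fold change 5.39 ± 0.29 SE, adjusted p = 5.68e-05). Fosl1, an AP-1 subunit induced by ERK, rose from 1.58 and 0.833 CPM to 83.3 and 118 CPM, and Dusp5, a nuclear phosphatase that acts on ERK, from 4.49 and 21.4 CPM to 69.9 and 294 CPM. The members that fell were Etv5, an ETS factor that AT2 cells need to keep their identity, from 325 and 265 CPM to 96.7 and 20.2 CPM, and Spry1. Phlda1 was at 803 and 520 against 360 and 225 CPM and did not pass (adjusted p = 0.068).

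Serine synthesis and targets of ATF4, the transcription factor of the amino acid response, were higher for 17 of 30 genes and lower for Vldlr (median log2 fold change 1.78). Phgdh is among the 17, so this count includes a marker named from earlier results of the same data. Psat1, the next enzyme after Phgdh, rose from 5.81 and 8.61 CPM to 29.6 and 61.0 CPM. Asns, which makes asparagine, rose from 18.4 and 11.1 CPM to 86.0 and 104 CPM (log2 fold change 2.5 ± 0.32 SE, adjusted p = 0.000957). Slc7a11, the cystine transporter whose upstream sequence is printed above, rose from 0.249 and 7.22 CPM to 21.5 and 63.6 CPM, and Chac1, which breaks down glutathione, from 1.16 and 0.833 CPM to 16.1 and 24.7 CPM. For these 4 genes the transitional sums did not overlap with the others. Atf4 mRNA itself stood at 202 and 230 CPM against 127 and 113 CPM (adjusted p = 0.0956).

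**Figure D4:**
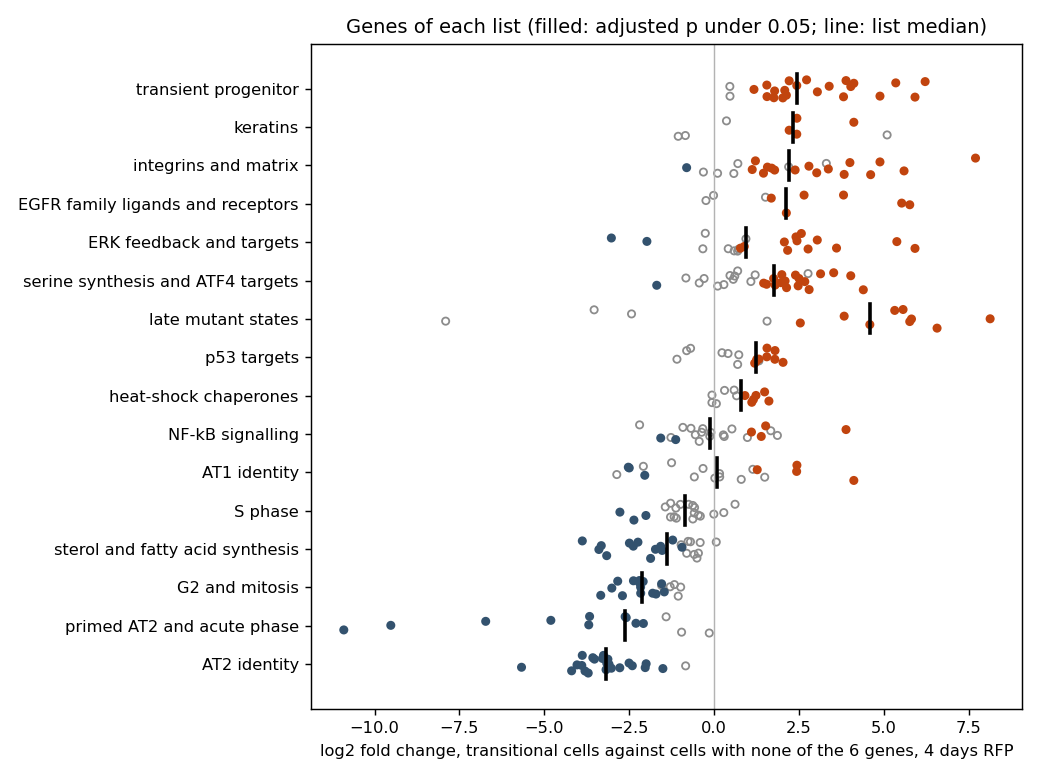
Log2 fold change of each tested gene of 16 lists, transitional cells against cells with none of the 6 genes at 4 days, with filled points for genes at an adjusted p under 0.05 and a line at each list's median. The medians run from -3.18 for AT2 identity to 4.59 for genes of late mutant states.

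Genes that mark later mutant states were for the most part higher in the transitional cells of 4 days. Of 13 tested, 9 were higher and none lower (median log2 fold change 4.59). After thinning 9 were higher and 1 lower, and in male cells 9 and 2. Without cells with immune or other markers 10 were higher and 2 lower. Lif, a cytokine of the interleukin 6 family, rose from 0.748 and 1.67 CPM to 43.0 and 131 CPM (log2 fold change 5.82 ± 0.36 SE, adjusted p = 5.68e-05). Mcpt8, a protease gene otherwise known from basophils, rose from 0 and 0.278 CPM to 16.1 and 59.9 CPM, and Ctse, an aspartic protease, from 0.166 and 0.833 CPM to 13.4 and 29.6 CPM. Mcpt8 had a UMI in 4 of 36 and 45 of 387 cells, and the granzyme gene Gzme in 2 of 36 and 21 of 387. No UMI of Cd177 was found in 36 and 387 transitional cells, which allows a share of cells with a UMI of up to 8.33% in replicate 1 and 0.775% in replicate 2 (3 counts of the cells of each library, counting error only). Dlk1, an imprinted gene, had 8.06 and 1.5 CPM against 4.90 and 32.2 CPM (adjusted p = 0.0791). This list was drawn from states that the study described in these libraries, so its direction is not independent evidence.

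Genes of G2 and mitosis were lower, with 15 of 20 lower and none higher (median log2 fold change -2.12). In transitional cells of 2 weeks none of these 20 genes was higher or lower than in cells with none of the rule genes (median 0.04), with sums of 598 against 633 CPM and 294 against 251 CPM, and for none of them did the difference between the time points pass. Of 20 S phase genes 3 were lower and none higher (median -0.87), a share near that of all genes, and the libraries differed. The S phase genes summed to 451 CPM in transitional cells against 292 CPM in replicate 1 and to 295 against 588 CPM in replicate 2, and 5 of the 20 had the same sign in both. Ube2c, a ubiquitin enzyme of mitosis, fell from 49.3 and 129 CPM to 8.06 and 37.4 CPM (log2 fold change -2.20 ± 0.31 SE, adjusted p = 0.00136). Birc5, an inhibitor of apoptosis that also acts in mitosis, fell from 28.5 and 95.3 CPM to 5.37 and 28.4 CPM. Counting cells with at least 2 of the 6 genes as transitional turned both directions, to log2 fold changes of 0.38 for Ube2c (adjusted p = 0.794) and 0.18 for Birc5 (adjusted p = 0.897). Mki67 had a UMI in 1 of 36 and 10 of 387 transitional cells. Mcm7, a subunit of the replicative helicase, was at 56.4 and 54.3 against 28.9 and 31.4 CPM and did not pass (adjusted p = 0.113). Cdc20 and Nusap1 were also lower but lost their call without replicate 2. After thinning, the median log2 fold change of the G2 and mitosis list was -7.12. Replicate 1 then held 13 transitional cells of 2000 UMIs each, and the list summed to 102 CPM in its transitional cells before thinning. With so few counts, the size of this median is not to be read as a larger fall.

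Targets of p53 were higher for 9 of 17 genes and lower for none (median log2 fold change 1.25). Cdkn1a, the inhibitor p21 that holds cells in G1, rose from 181 and 141 CPM to 535 and 572 CPM (log2 fold change 1.56 ± 0.31 SE, adjusted p = 0.00646). Perp, a desmosomal protein, rose from 20.4 and 16.1 CPM to 64.5 and 110 CPM and the pro-apoptotic gene Bax from 154 and 185 CPM to 473 and 443 CPM. Btg2 did not pass, with 96.7 and 77.5 against 114 and 119 CPM. Sterol and fatty acid synthesis, which supplies surfactant lipid, was lower for 13 of 22 genes and higher for none (median -1.37). Fasn, the fatty acid synthase, fell from 456 and 594 CPM to 77.9 and 64.0 CPM, and Scd2, a desaturase, from 331 and 363 CPM to 64.5 and 29.2 CPM.

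The 12 genes with the largest rise had at most 1 UMI in the cells with none of the genes. Il24, a cytokine gene, had 72.6 and 46.4 CPM in transitional cells and no UMI in cells with none of the genes, which makes it at least 291-fold higher in replicate 1 and at least 55.7-fold in replicate 2, against a floor of 3 counts per library. On the same floor the transcription factor Onecut2 (51.1 and 68.1 CPM) was at least 205- and 81.7-fold higher, the protease inhibitor Serpinb2 (40.3 and 58.0) at least 162- and 69.6-fold and the trefoil factor Tff1 (37.6 and 26.6) at least 151- and 31.9-fold. The mucin glycosyltransferase Gcnt3 (18.8 and 56.5 CPM) was at least 75.5- and 67.8-fold higher, Nrk, a kinase (16.1 and 41.9), at least 64.7- and 50.3-fold, Dynap (10.7 and 114) at least 43.1- and 137-fold, and the proteoglycan gene Acan (10.7 and 20.6) at least 43.1- and 24.7-fold. The collagenase Mmp13 and U90926 had 1 UMI each in transitional cells of replicate 1, under the floor, and were at least 135-fold (112 CPM) and 49.8-fold (41.5 CPM) higher in replicate 2. A bound depends on the depth of its library, and replicate 1 held fewer transitional and more comparison cells. It takes the count in transitional cells as exact and leaves out the counting error of that number. In replicate 1 this count was 4 UMIs for Dynap, 4 for Acan, 6 for Nrk and 7 for Gcnt3. Msln, which encodes mesothelin, had 80.6 and 131 CPM against 1 UMI, and Wincr1, a noncoding RNA, 72.6 and 137 CPM against 1 UMI. Of 5 mesothelial markers the other 4 had no UMI in transitional cells, and Msln had one in 9 of 36 and 113 of 387 of them and in none of the Ptprc+ cells. Cells between the classes also carried Msln, with 12.7 and 1.53 CPM at 1 rule gene and 10.4 and 21.3 CPM at 2. Mmp13 and U90926 did not pass without replicate 2 (adjusted p = 0.078 and 0.122), and Tff1 did not pass after thinning.

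The 12 genes with the largest fall were genes of macrophages and other leukocytes, Wfdc17, C1qa, Ccl8, C1qc, Aif1, Mgl2, Ccl2, Cd300c2, Ccl3, Fcgr2b, Ly86 and Clec12a. None had a UMI in a transitional cell. In the comparison cells they stood between 0.0831 and 3.82 CPM in replicate 1 and between 31.1 and 299 CPM in replicate 2, and without replicate 2 none of the 12 passed. The 12 immune markers summed to 16.1 and 43.8 CPM in transitional cells, 28.7 and 1617 CPM in cells with none of the genes and 6822 and 10238 CPM in Ptprc+ cells, and 10 and 3 of them were at 0 in transitional cells. Of 10 tested, 6 were lower. Cells without a Ptprc UMI but with immune RNA were thus part of the comparison class of replicate 2.

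Both classes were therefore also compared after cells with a UMI of leukocyte, endothelial, fibroblast or ciliated cell markers, or with at least 10 UMIs of the club cell gene Scgb1a1, had been left out. This choice was made after seeing the data. It removed 3 of 36 and 13 of 387 transitional cells and 115 of 2553 (4.5%) and 137 of 720 (19%) comparison cells, and 1609 genes were then higher and 2019 lower of 12001 tested (30.2%). The same 22 AT2 identity genes were lower and the same 21 transient progenitor genes higher, while the G2 and mitosis list had 16 lower genes, 14 of them shared with the 15 above. Ccl6 lost its call (adjusted p = 0.947). S phase then had 7 lower genes. With these cells left out, the largest falls were of other genes, whose levels and bounds are given here for all cells of both classes, before any were left out. Mlana, a melanosome protein, had no UMI in transitional cells and 13.0 and 21.7 CPM in the comparison cells (at least 1.61-fold lower in replicate 1 and 19.3-fold in replicate 2, against 3 counts per library), and Slc24a4, an ion exchanger, none against 10.3 and 14.4 CPM (at least 1.28- and 12.9-fold lower). Saa3, Iigp1, Ppp1r3c, Trpv6, Tnfsf13os, Scnn1b, Atp6v0a4, 1810063I02Rik, Togaram2 and 4933415A04Rik completed these 12, at 27.2 CPM or less in the comparison cells of either library. In all cells, Mlana alone of the 12 passed when replicate 2 was left out.

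Other cell types contributed little to the transitional class. The 9 endothelial markers summed to 51.1 and 22.5 CPM against 245 and 151 CPM, and 5 of 8 tested were lower. The 9 mesenchymal markers summed to 5.37 and 0.748 CPM against 74.2 and 3.61 CPM, with Mgp lower of 6 tested. The 7 ciliated markers summed to 91.4 and 28.8 CPM against 81.4 and 79.7 CPM, with Dynlrb2 lower of 6 tested. Of 3 airway secretory genes and 2 basal cell genes tested, none passed, and Scgb1a1 stood at 116 and 4832 CPM against 3770 and 584 CPM. A single transitional cell of replicate 2 carried 12803 of the 12914 Scgb1a1 UMIs of its class. Hbb-bs, a hemoglobin gene of red blood cells, was lower of 4 such genes tested, at 5.37 and 0 CPM against 379 and 0 CPM.

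Transitional cells at 2 weeks, found by the same rule in the RFP libraries of that time, were set beside those of 4 days. There 25.3% of the genes tested were called against cells with none of the genes, 1519 of them higher (12%) and 1668 lower (13.2%). Of the genes higher at 4 days, 883 were higher at 2 weeks too (75.9% of the list at 4 days, 58.1% of that at 2 weeks), and of those lower 1058 (61.3% and 63.4%), while 0 and 6 genes were called in the opposite direction. When the difference between the classes was compared between the time points, no gene passed (edgeR, smallest adjusted p = 0.0666), 1158 genes (9.18%) had an unadjusted p under 0.05, and DESeq2 called 4. That count was 1038 without 4 days replicate 1 and 1, 20 and 63 without 4 days replicate 2, 2 weeks replicate 1 and 2 weeks replicate 2, so it depended on the libraries.

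Compared directly, 31 of 11675 genes (0.266%) were lower in transitional cells at 4 days than at 2 weeks and none was higher, while 1588 genes (13.6%) had an unadjusted p under 0.05 and DESeq2 called 83. Cd177, the surface protein that marks a mutant state of later time points, had no UMI at 4 days and 37.5 and 45.2 CPM at 2 weeks. Dlk1 stood at 8.06 and 1.5 CPM against 540 and 174 CPM (log2 fold change -7.01 ± 0.82 SE, adjusted p = 0.0142 by edgeR), Gzme at 13.4 and 70.0 against 1741 and 463 CPM, Trf, the iron carrier transferrin, at 43.0 and 19.8 against 1675 and 813 CPM, and Lrg1 at 51.1 and 47.5 against 504 and 404 CPM. Orm1 and Tmem252 were among the 8 genes with the largest difference, a set that did not include all of the genes just named. Each of the 31 was lower in both libraries of 4 days than in both of 2 weeks. The test had picked them on these same values, so this separation adds no support. The share of all genes tested that separate in this way is not given here.

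The hemoglobin genes Hbb-bt, Hba-a2, Hbb-bs and Hba-a1 were also among those 8, at 0 to 5.37 CPM at 4 days and 18.8 to 388 CPM at 2 weeks. Red blood cell markers, hemoglobin genes among them, summed to 5.37 and 0.748 CPM against 587 and 207 CPM. Their part in the other differences between time points was not tested. Clu stood at 4686 and 6697 CPM at 4 days and 13084 and 10587 CPM at 2 weeks, and Phgdh at 118 and 544 against 213 and 187 CPM, and neither passed. Depth differed as well, with median UMIs of 9898.5 and 6104 at 4 days and 21052.5 and 15364 at 2 weeks. The count of 31 was 432 without 4 days replicate 1, 7 without 4 days replicate 2, 180 without 2 weeks replicate 1 and 78 without 2 weeks replicate 2. It was 0 when cells with at least 2 of the 6 genes counted as transitional and 187 with the replicate number as a block.

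**Figure D5:**
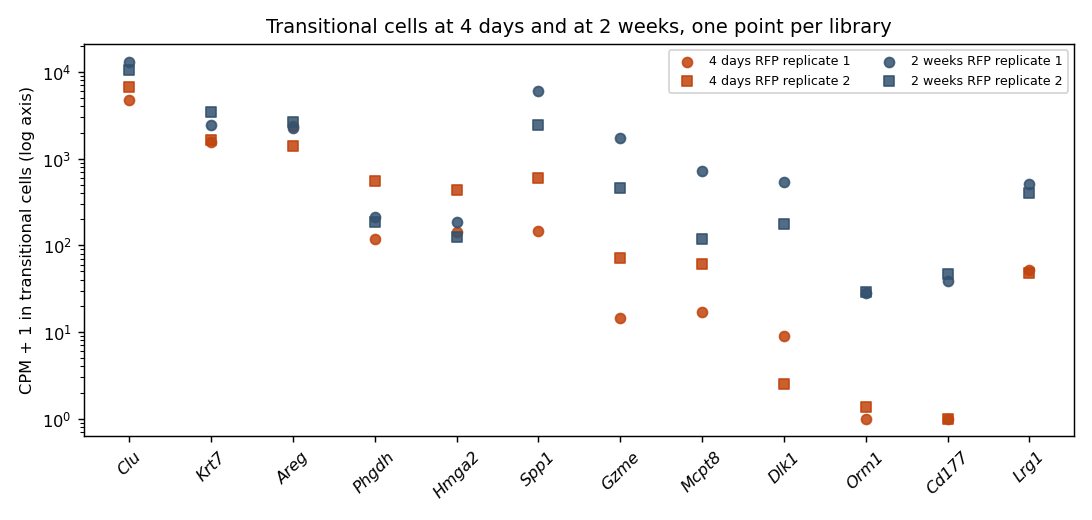
Level of 12 genes in transitional cells (CPM + 1, log axis), with 1 point for each RFP library of 4 days and of 2 weeks. Lrg1 sits at 51.1 and 47.5 CPM at 4 days against 504 and 404 CPM at 2 weeks, and Phgdh and Hmga2 overlap between the time points.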

How the data were processed

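Droplet single-cell RNA was measured in 10 libraries, and the 4 Red2Kras RFP libraries carried the tests. The deposited files give, for each gene in each barcode, UMI counts without normalization, made by the authors with Cell Ranger against GRCm38. The submitters' processing notes name Cell Ranger 3.1.0, FastQC 0.11.3 and MultiQC 1.8, and the file headers give Cell Ranger 5.0.1. No normalization, and no filter of cells beyond cell calling, is stated for them. The study's methods speak of counts for protein-coding genes, and the files also hold noncoding RNAs such as Wincr1.

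Cells were filtered and classed as in the report (Python 3.11.15, scipy 1.17.1, with scanpy 1.11.5 for doublet scores), and counts were summed per library and class. Genes passing filterByExpr were tested with edgeR 4.0.16 (R 4.3.3, TMM, quasi-likelihood F test) over 8 sums of 4 libraries, with library as a block and a class term per time point. The time points were compared over transitional cells alone without a block. Adjustment of p followed Benjamini and Hochberg across every gene of a fit, and 0.05 was the threshold. CPM are plain shares of summed counts. The depth per library and class is given by its cells and UMIs, and 36 cells limit replicate 1. The script was tested on simulated counts. Alternatives were DESeq2 1.42.0, no low-count filter, no block, other rule thresholds, thinning to 2000 UMIs, removal of doublets or of cells with other markers, male cells alone, and each library left out.

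The members and the 32 gene lists were chosen with earlier results of these data known. Lists share members, among them Krt7, Krt8, Krt18, Areg, Hbegf, Fosl1, Plaur and Cdkn1a, so their counts are not separate results. Named genes were the 12 largest rises and falls with at least 50 UMIs and the same sign in both libraries, the 8 largest between time points, and in each list those with the smallest p and the most abundant that did not pass. Sftpc, Lamp3, Lcn2, Ager, Krt8, Cd177, Dlk1, Scgb1a1, Plaur, Spp1, Slc7a11, Chac1, Psat1, Atf4, Egfr, Mki67, Gzme and Trf were added for their roles after their values had been seen.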

Additional observations from a re-analysis of the deposited data

How the results depend on the processing

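The count of 2889 genes at 4 days became 1592 with no replicate block, 1492 from the 4 days libraries alone and 727 with at least 2 of the 6 genes, and 1319 to 4750 with a library left out. The change between time points (0 genes) gave 4 with DESeq2, 309 without the low-count filter, 71 with at least 4 genes, 59 thinned, 18 against cells with 0 to 2 genes, 54 without cells with a UMI of another cell type, and, chosen after seeing the data, 7 in male cells and 49 without cells with immune or other markers, and 1 to 1038 with a library left out. The direct comparison of time points (31 genes) gave 83 with DESeq2, 526 without the low-count filter, 0 with at least 2 genes, 100 with at least 4, 116 thinned, 15 in male cells, 187 with the replicate block and 7 to 432 with a library left out. The labels do not say that a replicate number marks a pair across time points, and the replicate differences did not correlate (r = -0.0868 over 11517 genes), though replicate 2 was nearly all male at both (0.383% and 0.0512% female against 82.3% and 35.4%). Shares of 0.947% and 24.5% became 0.342% and 15.2% thinned, 3.58% and 33.1% with at least 2 genes, and 0.395% and 15.3% with at least 4. Of 2615 values of 168 named genes, 2287 kept direction and call, 227 lost and 98 gained the call, and 3 turned: Birc5 (0.18) and Ube2c (0.38) with at least 2 genes, and U90926 (-0.26) against cells with 0 to 2 genes. Without 4 days replicate 2, 52 named genes lost their call. The causes were not tested. The 36 transitional cells of replicate 1 limit the depth of every comparison at 4 days.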

Other observations

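Several other gene groups were measured in the transitional cells of 4 days against cells with none of the 6 genes. Of 8 tested genes of the cornified envelope outside the rule, 4 were higher and none lower (median log2 fold change 2.00), and S100a14 rose from 20.9 and 42.8 CPM to 863 and 1129 CPM. Among 16 claudin and junction genes, Cldn6, Ocln and F11r were higher and Cldn1 lower (median 0.52). Cldn6, an embryonic claudin, rose from 0.249 and 0 CPM to 10.7 and 28.4 CPM, and the abundant Cldn3 stood at 790 and 328 against 707 and 515 CPM (adjusted p = 0.268). Among 9 embryonic and oncofetal genes, Hmga1, Sox9 and Igf2bp2 were higher and Id2 lower. The median was -0.65, but 0.54 after thinning and 0.92 in male cells. Hmga1, the relative of Hmga2, rose from 6.23 and 15 CPM to 83.3 and 237 CPM, and Sox9, a factor of the embryonic lung tip, from 0.166 and 1.39 CPM to 29.6 and 115 CPM, with a UMI in 5 of 36 and 123 of 387 cells. Of 12 retinoid genes, Stra6, Rdh10, Rbp2 and Dhrs9 were higher and Aldh1a7 and Dhrs3 lower (median 0.64). After thinning 1 gene was higher and 2 lower, and in male cells none was higher and 2 lower (median -0.08). Stra6 lost its call without replicate 1 (adjusted p = 0.173), and 1 cell held 10 of the 11 UMIs in transitional cells of that library.

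Signalling and stress lists were mixed. Of 22 NF-kB genes, 4 were higher and 2 lower (median log2 fold change -0.11), with Tnip3, an inhibitor of the pathway, at 188 and 78.2 against 2.91 and 14.2 CPM, and Nfkbia, the classical feedback inhibitor, at 430 and 129 against 257 and 174 CPM (adjusted p = 0.858). In male cells 2 NF-kB genes were higher and 4 lower, and without cells with immune or other markers 6 were higher and 2 lower (median 0.38). Of 15 YAP targets, 5 were higher and 4 lower (median 0.70), with F3, the tissue factor, at 266 and 477 against 8.14 and 4.17 CPM. Ankrd1 was called from replicate 2 alone (0 and 42.3 CPM). Of 19 glycolysis and hypoxia genes, 4 were higher and 1 lower (median -0.00), with Gapdh at 1317 and 728 against 534 and 843 CPM, and the median was 0.71 without the marked cells. Of 12 heat-shock chaperones, 6 were higher and none lower (median 0.79), and 1 was higher after thinning to 2000 UMIs and 2 in male cells. Of 17 immediate early genes, Ier5 and Klf6 were higher and Zfp36 lower (median -0.09). After thinning 2 of these were higher and 5 lower (median -0.71), and without the marked cells 3 were higher and 3 lower (median 0.38). Of 13 interferon genes, 4 were lower and none higher (median -0.88), and Isg15 did not pass once cells with immune or other markers were left out (adjusted p = 0.304).

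The 12 YFP+ cells of 4 days that met the rule, 3 in replicate 1 and 9 in replicate 2, had median depths of 10407 and 7864 UMIs, and all but 5 had a readable sex, with 1 female and 6 male cells.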
